A study of Mus musculus with 6 samples.

Results

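The genes described here encode the building blocks and partners of the neuronal microtubule cytoskeleton and the growth cone. They are 10 tubulin genes, 3 genes of the doublecortin family, 7 genes of microtubule-associated proteins, 4 stathmin genes, 3 genes of neuronal intermediate filaments, and 10 genes of growth cone, collapsin response and axonal adhesion proteins. The 37 symbols were listed by name, and each matched 1 of the 48526 gene identifiers of the count table through GENCODE M21. All 37 had enough reads to be tested, among 20549 genes tested in all. RNA was sequenced from cells that had been driven from mouse embryonic stem cells towards neural progenitors, in 3 libraries of a flox/flox line and 3 of a line labelled -/- for Dmrta2, a Dmrt-family transcription factor of dorsal telencephalic progenitors.

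Cells of both genotypes passed through the same protocol. LDN193189 (100 nM), a BMP receptor inhibitor, and SB431542 (10 µM), an activin and TGF-beta receptor inhibitor, were present until day 4. XAV939 (1 µM), which inhibits the Wnt pathway, was present until day 6. Cyclopamine (1 µM), which blocks the Hedgehog pathway, was added from day 2 and was scheduled until day 10. The cells were replated for neuronal differentiation on day 5, and RNA was taken on day 8. In the flox/flox line recombinase sites flank part of Dmrta2, and this line was the control. Each genotype was represented by 1 line, so genotype and line cannot be told apart, and p-values measure the spread between the 3 libraries of a line. In the table, libraries carry a genotype and a letter, and values below are listed in the order A, B, C. The labels do not say that libraries with the same letter belong together across genotypes.

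Microtubules are hollow polymers of alpha- and beta-tubulin, and mammals have several genes for each subunit. Dividing progenitors use general isotypes for the spindle, whereas neurons switch on others, of which beta-III-tubulin (Tubb3) is a widely used marker. Neurons also make proteins that bind and stabilise microtubules in axons and dendrites, such as tau and MAP2, and proteins of the growth cone, the motile tip of the axon.

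Total counts ran from 24565560 to 39646793 per library. Levels are in CPM, read counts scaled to library size by TMM, and CPM per kilobase of exon where genes are compared with each other. Dmrta2 itself was 5.27-fold higher in the libraries labelled -/-, and a count over the whole gene does not test a deletion within it, so directions below are those of the labels. Neural progenitor genes (11 listed) summed to between 3613 and 4153 CPM in flox/flox libraries and between 3392 and 3774 CPM in -/- libraries, with 6 rising and 4 falling. Most of that sum was Vim (1978 and 1487 CPM on average) and Nes (813 and 676 CPM), which both fell. A list of 10 pan-neuronal genes outside the group summed to between 316 and 514 CPM in flox/flox and between 633 and 1035 CPM in -/- libraries, so neuronal transcripts were present in every library. Among other cell types, mesenchyme genes (6 listed, 1 rose and 3 fell) summed to 259 to 665 CPM in flox/flox and 133 to 190 CPM in -/-. Most of that sum was the collagen gene Col3a1 (328 and 91.0 CPM on average), which fell, while Col1a2 rose by 1.73 (log2). Endothelial genes (4) went from 57.7 to 91.4 down to 8.90 to 20.99 CPM, with Kdr the 1 of the 4 that fell. Summed levels were 39.1 to 47.3 against 48.9 to 51.1 CPM for astrocyte genes (5), and 58.1 to 70.6 against 71.8 to 90.7 CPM for the oligodendrocyte lineage (5). In each of these lists 1 gene rose and 0 fell. The largest parts of the sums were Slc1a3 (36.9 and 40.8 CPM on average), Mbp (42.4 and 40.5 CPM) and Pdgfra (17.0 and 29.9 CPM). None of these passed (adjusted p = 0.262, 0.55 and 0.133, edgeR). The sums were 39.9 to 46.6 against 41.4 to 67.3 CPM for peripheral neurons (6), 17.8 to 22.5 against 13.02 to 15.7 CPM for microglia (4, nearly all of it Csf1r), and 92.2 to 98.4 against 57.4 to 78.4 CPM for pluripotent cells (5). No listed marker was at 0 in every library, but Gfap, S100b, Sox10, Aif1, Cx3cr1 and Ptprc had too few reads to be tested. In bulk RNA, more cells of a type and more RNA per cell cannot be told apart, and the part of cell type markers in the differences below was not tested.

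In the libraries labelled -/-, 19 of the 37 genes rose and 1 fell, where 17.9% of all genes tested rose and 17.4% fell. A gene is said to rise or fall where its adjusted p in edgeR was under 0.05. Their median log2 fold change was 0.56, against 0.00 over all genes tested. All 19 rises were among the 30 genes outside the general tubulins and general microtubule-associated proteins. The 1 fall was among the 7 general genes, a share near that of all genes (17.4%). Groups were fully separated in CPM for 27 of the 37 genes (23 higher and 4 lower), where this was the case for 51% of all genes tested (25.5% higher and 25.4% lower). Without flox/flox B, 9 of the 37 rose, where 11.1% of all genes rose. Taking the column letter as a block gave 27 rises and 2 falls, where 21.2% of all genes rose and 20.3% fell. Of the 37 genes only Mapt lies on chromosome 11, whose genes were raised as a whole by 0.52 (log2) in -/- libraries relative to other chromosomes.

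**Figure D1:**
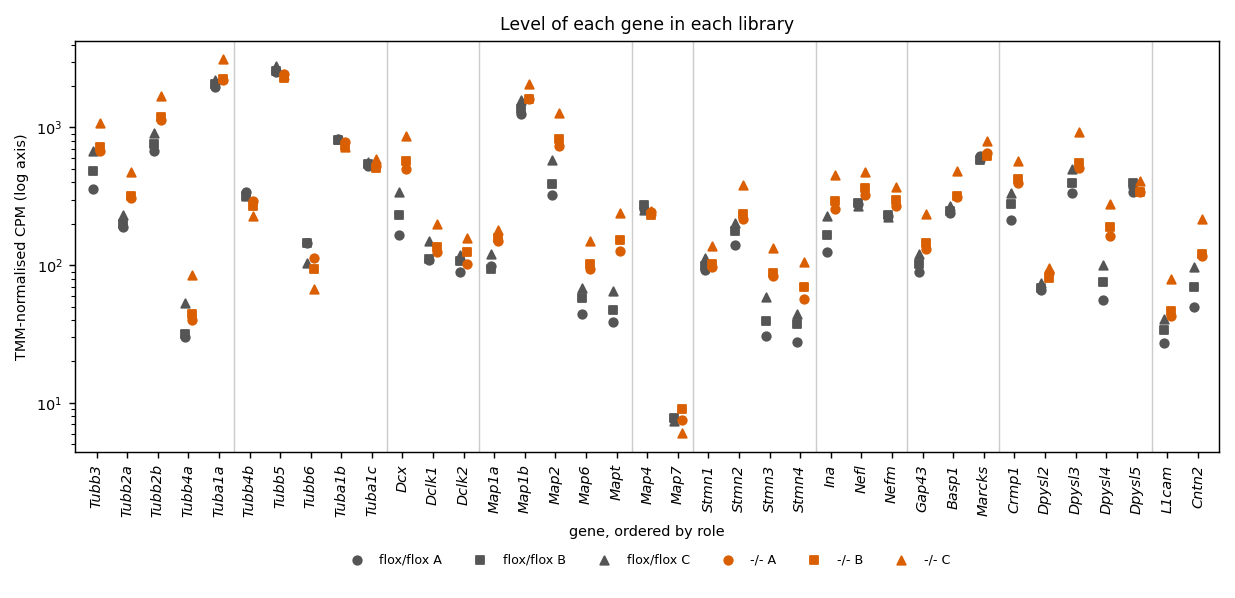
Level of each of the 37 genes (TMM-normalised CPM, log axis) in each of the 6 libraries, with grey lines between roles. Grey points are flox/flox and orange points -/-, and circles, squares and triangles are libraries A, B and C. Orange points lie above grey ones for Dcx, Mapt and Dpysl4, and the ranges meet for Tubb3 and Tuba1c.

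**Figure D2:**
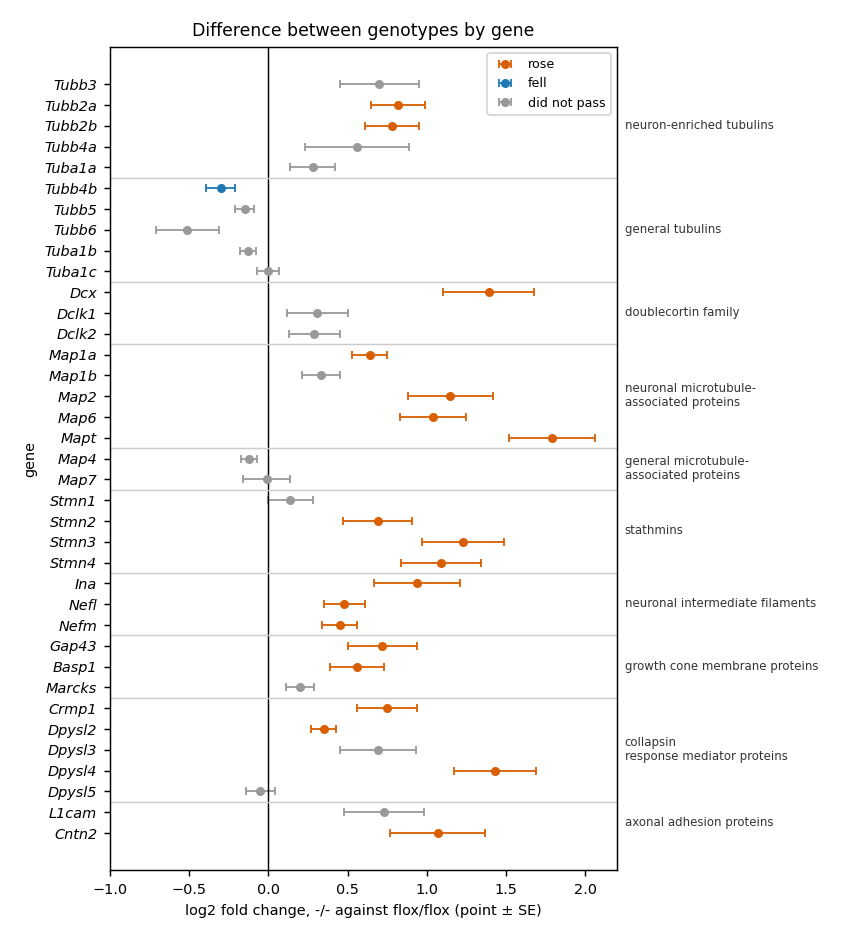
Log2 fold change of -/- against flox/flox for each gene, as point ± SE, grouped by role. Orange genes rose, the blue gene (Tubb4b) fell and grey genes did not pass. Mapt is at 1.79 (1.27 with the chromosome 11 offset taken out), Dpysl4 at 1.43 and Dcx at 1.39.

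Among tubulins, the beta isotypes Tubb2a and Tubb2b rose and Tubb4b fell, while the marker isotype Tubb3 did not pass. Tubb2a (chromosome 13) was at 188, 198 and 233 CPM in flox/flox and at 308, 317 and 471 CPM in the -/- libraries. Its groups did not overlap, and the rise was 0.82 ± 0.17 (log2, SE; adjusted p = 0.00877, edgeR). Tubb2b, its neighbour on the chromosome, was at 675, 762 and 908 CPM in flox/flox and at 1142, 1188 and 1695 CPM in -/- libraries. It rose by 0.78 ± 0.17 (adjusted p = 0.0111, edgeR), again with no overlap. The pair is close in sequence: 45.6% of the 50-base stretches of Tubb2a transcripts also occur in Tubb2b, so reads may have been divided between them. Both calls held in all 15 alternative settings at the threshold of 0.05, and at 0.01 that of Tubb2b did not.

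Tubb3 (chromosome 8, 123411424 to 123422015, plus strand, GRCm38) was at 360, 486 and 678 CPM in flox/flox and at 677, 728 and 1075 CPM in the -/- libraries. The highest control and the lowest -/- library were level, so the groups overlapped. Its difference was 0.70 ± 0.25 (adjusted p = 0.0663, edgeR), and 0.72 with the letter as a block (adjusted p = 0.000362, edgeR). It also passed with DESeq2 (0.0161), and in edgeR with no low-count filter (0.0276), without flox/flox C (0.0164) or without both C libraries (0.00356). Tubb4a, an isotype of mature neurons and glia, was lower, at 29.9, 31.5 and 53.1 CPM in flox/flox and 39.9, 44.0 and 85.4 CPM in -/- libraries. The difference of 0.56 ± 0.33 did not reach the threshold (adjusted p = 0.231, edgeR; 0.00129 with the letter as a block). Tuba1a, the alpha isotype of postmitotic neurons, was at 1955, 2054 and 2228 CPM in flox/flox and 2199, 2254 and 3121 CPM in -/-. Its groups overlapped, and the difference of 0.28 ± 0.14 missed it too (adjusted p = 0.152, edgeR; 0.0328 with the block). Of its 50-base stretches, 72.9% occur in other genes (46.9% in Tuba1c), and 26.2% of its exonic bases lie under another gene.

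Promoter windows of Tubb3, of the general isotype Tubb5 and of the stathmin gene Stmn3 are shown because Tubb3 and Tubb5 are a neuronal and a general isotype of 1 family, and Stmn3 is a gene that rose and has an E-box in its window. Windows (RefSeq, GRCm38.p6) run from 250 bases before to 50 after the RefSeq start of the gene, 5′ to 3′ on the gene's strand. For Tubb3 the GENCODE start given above, 123411424, lies within the window, upstream of the RefSeq start. Capitals mark CAGATG or CAGCTG, E-box letters bound by proneural bHLH factors, searched on both strands. Tubb3 is at chr8:123411303-123411602 (plus), Tubb5 at chr17:35838252-35838551 (minus) and Stmn3 at chr2:181314451-181314750 (minus).
Tubb3: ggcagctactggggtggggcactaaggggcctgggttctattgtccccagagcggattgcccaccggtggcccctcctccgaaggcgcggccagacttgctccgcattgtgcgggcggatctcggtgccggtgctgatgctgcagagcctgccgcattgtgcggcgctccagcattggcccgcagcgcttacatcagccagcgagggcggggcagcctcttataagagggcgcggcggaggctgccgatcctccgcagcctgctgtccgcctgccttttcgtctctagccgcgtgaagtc
Tubb5: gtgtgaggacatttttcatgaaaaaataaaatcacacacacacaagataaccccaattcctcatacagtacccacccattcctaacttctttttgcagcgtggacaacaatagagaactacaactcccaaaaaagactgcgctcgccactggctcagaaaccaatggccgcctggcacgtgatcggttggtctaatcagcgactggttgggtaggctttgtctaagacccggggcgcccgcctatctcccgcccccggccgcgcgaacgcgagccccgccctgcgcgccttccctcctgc
Stmn3: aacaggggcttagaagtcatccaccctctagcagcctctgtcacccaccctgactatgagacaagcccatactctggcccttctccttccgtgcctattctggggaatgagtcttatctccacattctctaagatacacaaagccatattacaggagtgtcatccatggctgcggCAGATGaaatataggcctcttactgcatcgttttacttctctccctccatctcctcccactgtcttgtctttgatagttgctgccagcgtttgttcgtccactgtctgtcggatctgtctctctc
Windows were given for 23 of the 37 genes, 28 windows in all. At least 1 of these motifs was found in 25.0% of these windows and in 30.6% of all 32851 windows. CAGATG was in 14.3% of them and 17.2% of all, and CAGCTG in 10.7% and 16.3%. In Stmn3 the match begins 75 bases before the start, and the windows of Tubb3 and Tubb5 hold none of these letters. A motif was also found for Ina, which rose, and for Map1b, L1cam, Tuba1b and Map4, which did not pass. GC content was 67.3% in the Tubb3 window, 55.0% in that of Tubb5 and 49.7% in that of Stmn3.

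Of the 5 general tubulins 1 fell and 4 did not pass. Tubb4b, a beta isotype of many tissues and of cilia, was at 339, 319 and 317 CPM in flox/flox and at 295, 269 and 228 CPM in the -/- libraries. Every -/- library lay below every control, and the fall was -0.30 ± 0.09 (adjusted p = 0.0404, edgeR). This call was lost when any 1 library other than -/- A was left out. Tubb5, the main beta isotype of dividing cells, was at 2535, 2588 and 2787 CPM in flox/flox and 2426, 2305 and 2410 CPM in -/- libraries. Its groups did not overlap, and the difference of -0.15 ± 0.06 did not pass (adjusted p = 0.0905, edgeR). Tubb6 differed by -0.51 ± 0.20 (adjusted p = 0.0861, edgeR; 0.00115 with the letter as a block), from 131 ± 23.6 to 91.7 ± 22.8 CPM (SD, n = 3), with overlapping groups. Among alpha isotypes of dividing cells, Tuba1b was at 819 ± 3.39 and 746 ± 30.3 CPM and Tuba1c at 542 ± 19.3 and 543 ± 40.0 CPM in flox/flox and -/- libraries. Their log2 differences were -0.13 and 0.00, and neither passed.

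Because the isotypes are made side by side, their make-up was also taken within a library, as counts per kilobase, which does not depend on scaling between libraries. Tubb3, Tubb2a, Tubb2b and Tubb4a together made 38.6%, 42.4% and 47.3% of the counts of the 7 beta-tubulin genes in the flox/flox libraries. In the -/- libraries they made 53.8%, 56.6% and 65.6%. The groups did not overlap, and the mean share was higher by 15.9 percentage points (exact permutation test, two-sided, p = 0.1 and adjusted p = 0.1 over 4 such measures, n = 3 a group), which is the smallest p that 3 against 3 can give. The share of Tubb5 went from 45.2% ± 2.42 to 33.5% ± 4.10 (SD, n = 3), and Tubb4b went from 8.93% ± 1.20 to 5.98% ± 1.44. That of Tubb2b went from 19.3% ± 0.916 to 26.9% ± 2.31. Tubb3 alone was at 12.04%, 15.1% and 18.5% in flox/flox and 18.2%, 19.6% and 22.9% in -/- libraries, which overlap. Within each letter it was higher in -/-, by 6.19, 4.50 and 4.42 points. The share of Tuba1a among 3 alpha genes was 62.0%, 62.9% and 64.4% in flox/flox and 65.3%, 67.0% and 72.9% in -/- libraries, 5.33 points higher on average with no overlap (exact permutation p = 0.1, adjusted p = 0.1). The 7 beta genes as a whole summed to 1760 ± 183 CPM per kilobase in flox/flox and 2159 ± 301 in -/- (SD, n = 3).

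**Figure D3:**
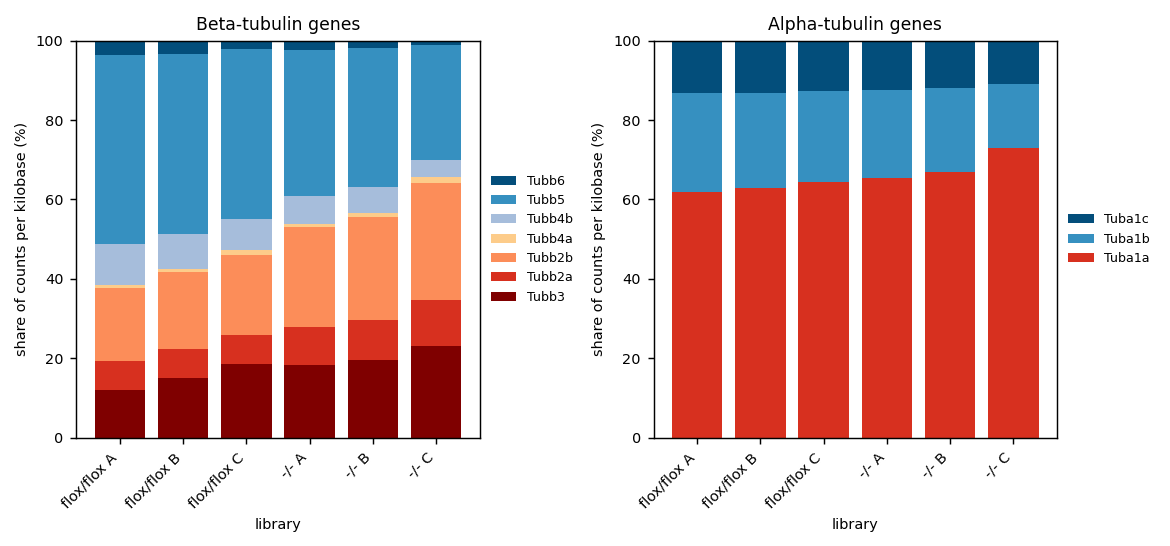
Share of each isotype (percent of counts per kilobase) among 7 beta-tubulin genes (left) and 3 alpha-tubulin genes (right), as stacked bars for each library. Warm colours are neuron-enriched isotypes, which reach 38.6% to 47.3% of the beta genes in flox/flox and 53.8% to 65.6% in -/- libraries.

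By level per kilobase, Tuba1a (1153 CPM per kilobase) and Tubb5 (793) led among tubulins in flox/flox libraries, followed by Tuba1b (437), Tubb2b (341) and Tubb3 (272). In -/- libraries the order was Tuba1a (1400), Tubb5 (716), Tubb2b (585), Tubb3 (442) and Tuba1b (398). The neighbours Tubb3 (442 ± 116, SD, n = 3) and Tuba1b (398 ± 16.1) did not differ there beyond their spread. Of 50-base stretches, 72.9% in Tuba1a, 66.7% in Tuba1b and 52.7% in Tuba1c occur in other genes. These were 49.6% in Tubb2a, 36.9% in Tubb2b and 37.8% in Tubb4b, against 0.0892% in Tubb5 and 0% in Tubb3. How such reads were counted was not given, so this order and the shares above are uncertain to that extent.

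Doublecortin binds the microtubule lattice in migrating and newly born neurons, and its gene Dcx showed 1 of the largest rises. Dcx was at 166, 232 and 340 CPM in flox/flox and at 500, 574 and 862 CPM in the -/- libraries. The lowest -/- library exceeded the highest control, and the rise was 1.39 ± 0.29 (log2, SE), or 2.63-fold (adjusted p = 0.00891, edgeR). The related kinases did not pass: Dclk1 differed by 0.31 ± 0.19 (adjusted p = 0.25, edgeR; 0.00703 with the letter as a block) and Dclk2 by 0.29 ± 0.16 (adjusted p = 0.212; 0.00902 with the block). Both overlapped between groups.

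Of 5 neuronal microtubule-associated proteins, 4 rose, led by Mapt, the gene of tau, which binds axonal microtubules. Mapt was at 38.7, 47.1 and 64.5 CPM in flox/flox and at 127, 153 and 239 CPM in the -/- libraries. The groups lay far apart, at 1.79 ± 0.27 (log2, SE), or 3.46-fold (adjusted p = 0.00245, edgeR). With the offset for chromosome 11 taken out, the value was 1.27 (adjusted p = 0.0104, edgeR). Map2, which marks dendrites, was at 322, 386 and 577 CPM in flox/flox and 739, 828 and 1283 CPM in -/- libraries. It rose by 1.15 ± 0.27 without overlap (adjusted p = 0.0138, edgeR; 0.0588 without flox/flox B). Map6, whose product makes microtubules resistant to cold, rose by 1.04 ± 0.21 (adjusted p = 0.0086, edgeR), from 56.6 ± 12.01 to 116 ± 30.7 CPM (SD, n = 3). Map1a rose by 0.64 ± 0.11 (adjusted p = 0.00393, edgeR), from 104 ± 13.9 to 162 ± 14.9 CPM. Map1b, the early counterpart of Map1a in growing axons, was the most abundant of these genes, at 1253, 1365 and 1584 CPM in flox/flox and 1597, 1621 and 2069 CPM in -/- libraries. Its groups did not overlap, but the difference of 0.33 ± 0.12 missed the threshold (adjusted p = 0.0758, edgeR; 0.00265 with the block and 0.0341 with no low-count filter).

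Map4 and Map7, made in many cell types, did not pass. Map4 was at 256, 273 and 252 CPM in flox/flox and 243, 233 and 246 CPM in -/- libraries, a difference of -0.12 ± 0.05, and Map7 averaged 7.60 CPM in flox/flox and 7.51 CPM in -/- libraries. The log2 ratio of Mapt to Map4 per kilobase was -1.72, -1.53 and -0.96 in the flox/flox libraries and 0.08, 0.40 and 0.97 in the -/- libraries. The groups did not overlap, and the mean was higher by 1.88 (exact permutation p = 0.1, adjusted p = 0.1). With the chromosome 11 offset taken out of Mapt, the -/- values were -0.44, -0.12 and 0.45, the difference was 1.37, and the groups still did not overlap.

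Stathmins bind free tubulin dimers and promote microtubule disassembly, and 3 of 4 rose. Stmn3 was at 30.7, 39.6 and 58.6 CPM in flox/flox and 83.5, 87.1 and 133 CPM in -/- libraries. It rose by 1.23 ± 0.26 with no overlap (adjusted p = 0.00991, edgeR). Stmn4 rose by 1.09 ± 0.25 (adjusted p = 0.013, edgeR), from 36.2 ± 8.28 to 77.3 ± 25.1 CPM (SD, n = 3). Stmn2, a stathmin of axon growth and repair, was at 141, 177 and 201 CPM in flox/flox and 218, 236 and 382 CPM in -/- libraries. Its rise of 0.69 ± 0.22 lay at the threshold (adjusted p = 0.049, edgeR) and was lost without flox/flox A, flox/flox B, -/- B or -/- C, with limma-voom (0.0572), and with the 1 CPM filter or the chromosome 11 offset (both 0.0522). Stmn1, which progenitors make too, was at 92.6, 99.5 and 113 CPM in flox/flox and 96.8, 102 and 138 CPM in -/- libraries. The ranges overlapped, with a difference of 0.14 ± 0.14. The log2 ratio of Stmn2 to Stmn1 per kilobase was -0.94, -0.71 and -0.71 in flox/flox and -0.37, -0.34 and -0.08 in -/- libraries, higher by 0.53 with no overlap (exact permutation p = 0.1, adjusted p = 0.1).

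All 3 genes of neuronal intermediate filaments rose, although by unequal amounts. Ina, for alpha-internexin, which appears early in neurons, was at 124, 167 and 228 CPM in flox/flox and 255, 292 and 449 CPM in -/- libraries. It rose by 0.94 ± 0.27 (adjusted p = 0.0291, edgeR), a call lost without flox/flox A, flox/flox B, -/- B or -/- C. Nefl and Nefm, the light and medium neurofilament genes, rose by 0.48 ± 0.13 and 0.45 ± 0.11 (adjusted p = 0.0244 and 0.016, edgeR). Nefl was at 280, 283 and 269 CPM in flox/flox and 324, 362 and 471 CPM in -/- libraries. Unlike most genes described here, Nefl and Nefm were not highest in flox/flox C. Leaving out any 1 flox/flox library ended the call for Nefl, and leaving out flox/flox B that for Nefm. The genes adjoin on chromosome 14, and 32.8% of the exonic bases of Nefl lie under exons of Nefm, so reads can be shared.

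Of the growth cone membrane proteins, Gap43 and Basp1 rose and Marcks did not pass. Gap43, a marker of axon growth, was at 88.8, 102 and 120 CPM in flox/flox and 131, 145 and 236 CPM in -/- libraries. It rose by 0.72 ± 0.22 (adjusted p = 0.0406, edgeR), and the call was lost without flox/flox A, flox/flox B or -/- B. Basp1 was at 239, 246 and 268 CPM in flox/flox and 314, 316 and 484 CPM in -/- libraries. It rose by 0.56 ± 0.17 (adjusted p = 0.0339, edgeR) and lost the call without flox/flox A or flox/flox B. Marcks, which also binds actin and is made in progenitors, was at 603 ± 21.5 and 691 ± 92.4 CPM (SD, n = 3), a difference of 0.20 ± 0.09.

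Collapsin response mediator proteins relay repulsive guidance cues to the cytoskeleton, and 3 of 5 rose. Dpysl4 was at 55.9, 76.2 and 101 CPM in flox/flox and 163, 188 and 278 CPM in -/- libraries. Its rise of 1.43 ± 0.26, or 2.70-fold, came with no overlap (adjusted p = 0.00499, edgeR) and was exceeded among the 37 genes by that of Mapt alone, which was smaller (1.27) with the chromosome 11 offset taken out. Crmp1 rose by 0.75 ± 0.19 (adjusted p = 0.0192, edgeR) and Dpysl2, which carries tubulin to the growing axon tip, by 0.35 ± 0.08 (adjusted p = 0.0125, edgeR), and both calls were lost without flox/flox B. Dpysl3 was at 334, 398 and 499 CPM in flox/flox and 512, 555 and 922 CPM in -/- libraries, which did not overlap. Its difference of 0.69 ± 0.24 missed the threshold (adjusted p = 0.0588, edgeR; 0.000851 with the block and 0.013 with DESeq2). Dpysl5 stood apart from its relatives, at 339, 392 and 391 CPM in flox/flox and 340, 338 and 407 CPM in -/- libraries, with overlapping groups and a difference of -0.05 ± 0.09 (adjusted p = 0.73, edgeR).

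Cntn2, an adhesion protein of early axons, was at 49.9, 69.3 and 96.7 CPM in flox/flox and 118, 120 and 215 CPM in -/- libraries. It rose by 1.07 ± 0.30 without overlap (adjusted p = 0.029, edgeR), a call lost without flox/flox A, flox/flox B or -/- C. L1cam, its partner on axons, was at 27.3, 33.7 and 40.8 CPM in flox/flox and 42.8, 46.5 and 80.0 CPM in -/- libraries. The groups did not overlap, and the difference of 0.73 ± 0.25 missed the threshold (adjusted p = 0.058, edgeR; 0.0017 with the block and 0.0129 with DESeq2).

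Libraries of 1 genotype also differed among themselves. Of the 37 genes, 29 were highest in flox/flox C, and 32 were highest in -/- C, where these libraries were the highest of their group for 37.02% and 41.2% of all genes tested. In both genotypes library C exceeded library A for 28 of the 37 genes. Tubb3 was 1.88-fold higher in flox/flox C than in flox/flox A and 1.59-fold higher in -/- C than in -/- A, beside 1.63-fold between genotypes. With the flox/flox average set to zero, the mean log2 level of the 10 pan-neuronal genes stood at -0.35, -0.03 and 0.38 in the flox/flox libraries and 0.70, 0.84 and 1.39 in the -/- libraries. That of the 5 neuron-enriched tubulins was -0.23, -0.07 and 0.30 and then 0.36, 0.44 and 1.05. With both C libraries left out, 25 of the 37 genes rose and 2 fell, where 18.5% of all genes rose and 17.6% fell.

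**Figure D4:**
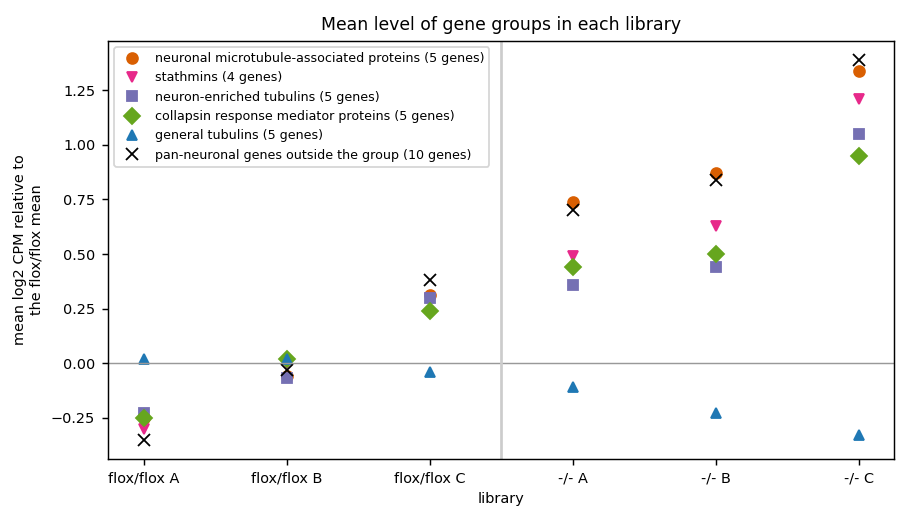
Mean log2 CPM of gene groups in each library, relative to their flox/flox mean. Each symbol is a group of genes, and crosses are 10 pan-neuronal genes that are not among the 37. Crosses run from -0.35 to 0.38 in flox/flox and from 0.70 to 1.39 in -/- libraries, and general tubulins run from -0.11 to -0.33 in -/- libraries.

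Levels were also taken relative to the pan-neuronal genes of the same library. Their mean was 0.98 (log2) higher in -/- libraries, and this amount is taken from every gene alike, so 94.6% of 20506 tested genes with reads in every library were lower on this scale, and 29 of the 37 (78.4%). It was higher without overlap for 5 of the 37 genes (13.5%, against 2.22% of those 20506), Mapt (0.79), Dpysl4 (0.46), Dcx (0.43), Stmn3 (0.27) and Map2 (0.17). None of the pan-neuronal genes lies on chromosome 11, and with the offset taken out Mapt was at 0.27. For Tubb3 it was lower by 0.26 without overlap, for Nefl by 0.52 and for Basp1 by 0.44. These values describe the 6 libraries and were not tested.

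Genes that act on microtubules beside the 37 were followed in lists of the same kind. Of 20 genes of microtubule ends, nucleation and severing, 11 rose, with a median of 0.22 (log2), where 17.9% of all genes rose. Pafah1b1, the dynein regulator Lis1, rose by 0.57 ± 0.07 (adjusted p = 0.00126, edgeR) and its partner Ndel1 by 0.71 ± 0.07 (adjusted p = 0.000588, edgeR). Both lie on chromosome 11, and with its offset taken out neither passed (0.05 and 0.19). Outside that chromosome 8 of 17 rose, where 14.4% of all genes outside it rose. Among the 8 was Camsap1, a minus-end binding protein (0.44 ± 0.09). Of 5 other tubulins tested, 3 rose, all 3 on chromosome 11, where 59.6% of all genes tested rose, among them the nucleating gamma-tubulin Tubg1 (0.74 ± 0.06) and the centriolar Tubd1 (1.13 ± 0.11). With the offset taken out their values were 0.22 and 0.61, and both still passed. In folding and modification of tubulin, 5 of 22 genes rose and 1 fell, a share of rises near that of all genes (17.9%). Vash2, a tubulin detyrosinating enzyme, was at 0.71 ± 0.12, and the folding cofactor gene Tbcd (chromosome 11) at 0.41 ± 0.05, or -0.10 with the offset. Tbca was at -0.34 ± 0.10 (adjusted p = 0.037, edgeR). Its call was lost with no low-count filter (adjusted p = 0.0681, edgeR) and without both C libraries (0.0921). It was also lost when any 1 library other than -/- A was left out. Of 12 other microtubule-associated proteins tested, 4 rose, where 17.9% of all genes rose. The smallest adjusted p were those of Jpt1 (chromosome 11, 0.78 ± 0.07, and 0.27 with the offset) and Map7d2 (0.96 ± 0.10). Over all 7 related lists, 3 of which are described in the closing section, 35 of 91 genes tested rose and 8 fell. Of all genes tested, 17.9% rose and 17.4% fell. Outside chromosome 11, 25 of the 79 related genes rose and 8 fell, where 14.4% of all genes outside that chromosome rose. Without flox/flox A or flox/flox B, 22 and 20 of the 91 rose, where 13.7% and 11.1% of all genes rose.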

How the data were processed

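The deposited table holds raw read counts per Ensembl gene for 6 libraries of day 8 cells, made from 1 µg RNA with a stranded mRNA kit per the labels' protocols. The submitters' processing notes name mm10 (GRCm38), featureCounts 1.4.6 and BWA 0.5.9 for the deposited counts. For the annotation release, the strand setting and multimapping reads, the answer was not given in the sources used here, so overlapping genes and close paralogs can share reads. Columns carry letters and were assigned to a genotype only, and 0 columns were left out.

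Counts were tested in R 4.3.3 with edgeR 4.0.16 (quasi-likelihood, two-sided, filterByExpr with minimum count 10 and minimum total 15, TMM, group alone, Benjamini-Hochberg over 20549 genes, threshold 0.05). The SE is the log2 fold change divided by the square root of F, and the method was tested on simulated data. Symbols, lengths and positions come from GENCODE M21. A depth of 1 CPM stands for at least 25.1 reads. Within each group, library pairs exceeded sampling noise (chi-square per gene from 5.47). Deviations of libraries with the same letter correlated at 0.275, 0.101 and 0.264, and those with unlike letters at -0.298 to 0.0316. The letter was therefore used as a block, in an alternative only. This pairing was read from the same counts and is not given by the labels. Shares and ratios within a family were compared by exact permutation tests.

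Alternatives were DESeq2 (1.42.0) and limma-voom (limma 3.58.1), other scalings and filters, each library left out, the block, a chromosome 11 offset and a threshold of 0.01, and, added later, both C libraries left out. Named genes are all 37, Dmrta2, and from each related list up to 2 per direction with the smallest adjusted p. Camsap1, Kdr, Col3a1, Col1a2, Csf1r, Nes, Slc1a3, Mbp and Pdgfra were added after their values were seen. The members and lists were chosen with earlier results of these data known.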

Additional observations from a re-analysis of the deposited data

How the results depend on the processing

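Of the 20 called genes, 9 kept direction and call in all 15 settings at the threshold of 0.05: Dcx, Dpysl4, Map1a, Map6, Mapt, Stmn3, Stmn4, Tubb2a and Tubb2b. The number of the 37 that rose was 7 at a threshold of 0.01, where 0 fell and the general genes held 0 falls. At that threshold 1992 of all 20549 genes tested rose and 1895 fell. With 1 library left out, 9 to 22 of the 37 rose and 0 to 2 fell. In those fits 11.1% to 16.7% of all genes rose and 11.2% to 15.9% fell. In these settings all rises of the 37 were among the 30 other genes, and all their falls among the 7 general genes. With DESeq2 22 rose and with no low-count filter 23, where 11.7% and 12% of the 31864 genes in those fits rose. With the column letter as a replicate block 2 fell, both general genes, as with both C libraries left out, a setting chosen after seeing the data. Apart from the 9 gains given in the report (Tubb6 the only fall), the block changed no call among the 37. Without flox/flox C, Tubb3, Map1b, Dpysl3 and L1cam passed as rises and Tubb6 as a fall, and without -/- A so did Dpysl3, L1cam and Tubb6. Of all genes, 2315 (without flox/flox B) to 3510 rose and 2342 (without -/- B) to 3336 fell with 1 library left out. In the related lists 17 rose and 3 fell at 0.01, 5 fell with no low-count filter, and 20 to 34 rose and 3 to 8 fell with 1 library left out.

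Tubb3 alone was higher by 5.04 points of the beta-tubulin counts, against 15.9 for the 4 isotypes. The ratio of Mapt to Map4 was higher by 1.37 with the chromosome 11 offset, a setting also added later. Signs changed for 5 genes, among them Tbcd (-0.10 with the chromosome 11 offset). Tuba1c was at -0.00061 with DESeq2 size factors, -0.0092 with upper-quartile scaling, -0.0005 with the 1 CPM filter, -0.0026 with limma-voom, -0.0015 with the block, -0.03 without flox/flox A or without both C libraries and -0.05 without -/- C (to 0.05 without -/- B). Map7 was at 0.0068 with no filter, 0.0016 without flox/flox B, 0.13 without -/- C (-0.15 without -/- B) and 0.10 without both C libraries. Stmn1 ran from -0.02 without -/- C to 0.24 without -/- A, and Dpysl5 from -0.13 without -/- C to 0.0097 without -/- B. The causes were not tested.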

Other observations

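Of 17 genes of growth cone actin and membrane proteins, 2 rose and 4 fell, with a median log2 fold change of -0.07, where 17.9% of all genes rose and 17.4% fell. Vasp, which elongates actin filaments, fell from 91.6 ± 6.99 to 61.2 ± 5.18 CPM (SD, n = 3; adjusted p = 0.00226, edgeR), and the actin-severing cofilin gene Cfl1 fell from 527 ± 3.32 to 431 ± 20.8 CPM (adjusted p = 0.00574, edgeR). Gprin1, a membrane protein of neurites, rose from 39.7 ± 11.9 to 79.6 ± 15.0 CPM (adjusted p = 0.0113, edgeR). Srcin1 rose by 0.60 ± 0.18 (log2, SE), and lies on chromosome 11, where its value was 0.08 with the offset taken out.

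Relatives of the axonal adhesion genes rose in 9 of 11, with a median of 1.06, where 17.9% of all genes tested rose. Chl1, a close relative of L1cam, was at 6.79, 5.36 and 8.65 CPM in flox/flox and 35.5, 50.8 and 93.2 CPM in -/- libraries A, B and C (8.62-fold, adjusted p = 0.00111, edgeR). Cntn3 rose from 3.71 ± 0.143 to 7.98 ± 0.289 CPM (SD, n = 3; adjusted p = 0.000602, edgeR). Among 4 other intermediate filament genes tested, the progenitor filament gene Vim fell from 1978 ± 224 to 1487 ± 128 CPM and Prph, of peripheral neurons, from 1.37 ± 0.391 to 0.377 ± 0.190 CPM. Nes (added after its value was seen) fell by 0.27 on the log2 scale. Both Vim and Nes are among the 11 neural progenitor genes listed, of which 6 rose and 4 fell, with a median of 0.36 (log2). Nefh, the heavy neurofilament gene on chromosome 11, rose from 2.04 ± 0.363 to 3.99 ± 0.403 CPM, and did not pass with the offset taken out (adjusted p = 0.0855, edgeR).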
